A study of Homo sapiens with 20 samples.

Results

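The regions described here are 2919 places in the human genome where the corepressor BCOR was found on chromatin, which the authors list as shared between hormone-free and dexamethasone-treated cells and which lie inside genes rather than at their starts. The peaks come from BCOR chromatin immunoprecipitation, and the authors' 2 other lists hold dexamethasone-enriched and vehicle-enriched peaks. How a peak was assigned to a list is not given in the sources used here. A shared peak was kept when its centre lay more than 1000 bp from the start site of every annotated transcript and between the start and end of at least 1 transcript. This held for 2919 of 8587 shared peaks, while 3063 lay within 1000 bp of a start site and 2605 lay between genes. All 3 lists together hold 11909 peaks, of which 1723 of 3055 dexamethasone-enriched and 85 of 267 vehicle-enriched peaks lay inside genes by the same rule. The nearest member to a start site was 1003 bp away and the nearest shared peak left out was 1000 bp away, with 49 members within 100 bp beyond the limit and 97 shared peaks within 100 bp inside it.

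The cells were HEK293-GR, a derivative of the human embryonic kidney line HEK293 that constitutively expresses the glucocorticoid receptor (GR). Whether the line is 1 clone is not given in the sources used here. All cells were kept in steroid-depleted medium for 48 h before treatment. For chromatin, cells received 100 nM dexamethasone (a synthetic glucocorticoid) or the ethanol vehicle for 1 h, with 2 BCOR libraries per treatment. For RNA, cells were transfected for 72 h with 20 nM of an siRNA pool against BCOR (siBCOR) or of a non-targeting pool (siNON), then given 100 nM dexamethasone or vehicle for 6 h. The 4 resulting groups, siNON vehicle, siNON dexamethasone, siBCOR vehicle and siBCOR dexamethasone, have 4 poly(A) RNA libraries each by their labels, whereas the series' design text speaks of 3 replicates. BCOR chromatin from siBCOR cells was not analysed here, so loss of BCOR from these peaks was not measured.

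BCOR is a corepressor first known as a partner of the transcription factor BCL6, and it is a subunit of PRC1.1, a Polycomb complex in which KDM2B binds unmethylated CpG islands and RING1 proteins place ubiquitin on histone H2A. GR is a hormone-activated transcription factor that mostly binds enhancers, many of them inside genes. Polycomb complexes are best known at CpG-rich start sites of developmental genes.

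The RNA libraries held 18580288 to 28054822 counts each in the transcripts used here. BCOR itself was at 159 to 227 CPM (counts divided by the library's total and set to a common total) in siNON vehicle against 21.8 to 23.5 CPM in siBCOR vehicle, and dexamethasone-treated cells had 70.6 to 106 and 13.8 to 15.5 CPM in the same order. Of the HEK293 markers, VIM was at 316 to 601 CPM, KRT8 at 309 to 608 CPM and NEFL at 128 to 221 CPM. KRT18 was at 152 to 242 CPM and CDH2 at 81.3 to 136 CPM. The others were low, with NEFM at 6.63 to 10.2, PAX2 at 1.88 to 5.33 and LHX1 at 1.51 to 4.06 CPM. Of the markers of other cell types that were checked, PTPRC, CD3E, CDH5, ALB and COL1A2 had 2 to 26 counts each over all 16 libraries and 3 more had 165 to 629 counts (0.0903 to 3.02 CPM), while the collagen gene COL1A1 was at 22.5 to 44.1 CPM in all 16. After the data were seen, siNON dexamethasone replicate 4, siNON vehicle replicate 3 and siBCOR vehicle replicate 2 were taken as standing apart from their groups. No numeric rule for this choice is given here. Of the values singled out below, 2 were in siBCOR vehicle replicate 2 but 4 in siBCOR dexamethasone replicate 4, which was not taken. Counts of called hosts without the 3 libraries so taken are given with the dependence on the processing. In such bulk RNA, fewer cells expressing a gene and less of its RNA per cell cannot be told apart.

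In 2917 of the 2919 peaks the gene around the peak, called the host here, carried a symbol. They named 2141 host genes, of which 1873 were protein-coding, 254 non-coding and 14 pseudogenes. A single symbol covered 2808 of the peaks, 109 peaks lay in 2 or more overlapping genes, and 2640 peaks (90.4%) lay in a coding gene. The count table lists each transcript's whole span, so whether a peak is in an exon or an intron is not given. In 2769 peaks (94.9%) the span of the host's most-read transcript contained the peak, whereas 148 peaks lay only in another, mostly longer, transcript. BCOR is such a case: its 4 shared peaks lie between chrX:39968158-39968492 and chrX:40035184-40035518 (hg19, the build of all peak coordinates here), inside a 126 kb transcript but upstream of the transcript that held most BCOR reads.

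At 525 host genes (24.5% of hosts) a shared peak also lay within 1000 bp of the gene's own start, against 12.3% of all 27896 symbols. For 4 such hosts that are described below, the 250 bases before the start are shown as RefSeq gives them on GRCh38.p14, because these bases show how far hosts differ in the CpG dinucleotides that PRC1.1 is known for. Capitals mark each CpG.
CDC42EP4: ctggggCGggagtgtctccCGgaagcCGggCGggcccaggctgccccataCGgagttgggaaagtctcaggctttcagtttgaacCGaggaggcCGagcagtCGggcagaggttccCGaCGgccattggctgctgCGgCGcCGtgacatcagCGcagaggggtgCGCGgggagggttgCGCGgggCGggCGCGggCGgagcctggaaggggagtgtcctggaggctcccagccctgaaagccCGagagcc
KLF15: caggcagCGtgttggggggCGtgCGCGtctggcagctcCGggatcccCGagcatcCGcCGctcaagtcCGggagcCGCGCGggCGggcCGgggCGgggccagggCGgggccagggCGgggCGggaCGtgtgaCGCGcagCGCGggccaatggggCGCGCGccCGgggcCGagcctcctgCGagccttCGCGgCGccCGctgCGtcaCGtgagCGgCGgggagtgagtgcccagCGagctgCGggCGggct
SMAD6: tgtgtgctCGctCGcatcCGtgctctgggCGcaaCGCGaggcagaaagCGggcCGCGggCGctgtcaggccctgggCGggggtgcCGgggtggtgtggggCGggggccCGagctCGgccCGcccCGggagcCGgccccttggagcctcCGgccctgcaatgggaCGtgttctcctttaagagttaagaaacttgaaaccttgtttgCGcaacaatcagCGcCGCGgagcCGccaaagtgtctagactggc
RBMS3: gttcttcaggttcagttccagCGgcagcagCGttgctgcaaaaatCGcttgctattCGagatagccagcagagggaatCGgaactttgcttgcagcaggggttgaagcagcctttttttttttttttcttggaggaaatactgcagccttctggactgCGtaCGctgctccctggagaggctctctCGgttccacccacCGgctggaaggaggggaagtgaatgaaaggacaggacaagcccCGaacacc
The KLF15 stretch (chr3:126357409-126357658, minus strand) holds 40 CpGs and is 80.4% G or C. Those of SMAD6 (chr15:66701986-66702235, plus strand) and CDC42EP4 (chr17:73312002-73312251, minus strand) hold 25 and 23 CpGs at 68% and 70.8% G or C. The RBMS3 stretch (chr3:29280821-29281070, plus strand) holds 10 CpGs and is 53.2% G or C. A RefSeq promoter of 300 bases was found for 1616 of the 2141 hosts. Of these, 66.6% had over 50% G or C and a CpG frequency over 0.6 of that expected from base composition, against 76.7% of tested genes and 46.8% of all 27305 promoters in the table. Among hosts the share was 75.6% of the 402 with a shared peak at their own start and 63.7% of the 1214 without one. The SP/KLF motif GGGCGG on either strand was present in 65.3% of host promoters, 68.1% of those of tested genes and 44.6% of all promoters. Host promoters were therefore CpG-rich at a lower rate than those of tested genes. The host promoters were not limited to tested hosts, so the sets are not alike. No hg19 sequence was used here, so the bases of the peaks themselves are not shown.

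Hosts were long genes. The median host transcript around a peak spanned 119.6 kb (quartiles 43.9 and 270 kb), and the longest transcript of tested hosts had a median of 93.9 kb against 26.4 kb for all tested genes. A longer gene offers more room for a peak under the rule, so this difference is in part fixed by how the members were chosen. Peaks lay a median of 38.8 kb from the start of the host transcript and 20.2 kb from the nearest start site of any gene. Only 312 members (10.7%) were within 2 kb of a start site, 998 (34.2%) were within 10 kb, and 331 (11.3%) were over 100 kb away. The nearest start site belonged to a host in 1973 peaks (67.6%). Dexamethasone-enriched peaks inside genes lay in longer transcripts (median 169.5 kb) and farther from starts (60.3 kb from the host start and 29.8 kb from the nearest start of any gene).

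Along the host transcript the peaks were spread over the whole length, with more in the part next to the start. Their median position was 47% of the way from start to end (quartiles 20.9% and 72.7%). The first 10% of host transcripts held 393 peaks (13.5%), or 13.2 per Mb of sequence that lay more than 1000 bp from every start site. The 9 later stretches of 10% held 8.05 to 9.79 peaks per Mb. For dexamethasone-enriched peaks the density went from 8.52 per Mb in the first 10% to 5.18 in the last, and the step from the first stretch to the next was from 13.2 to 9.79 for shared peaks and from 8.52 to 7.46 for dexamethasone-enriched peaks. The difference between the lists was not tested. Counting only peaks over 5000 bp from every start site moved the median position of shared peaks to 52%.

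**Figure D1:**
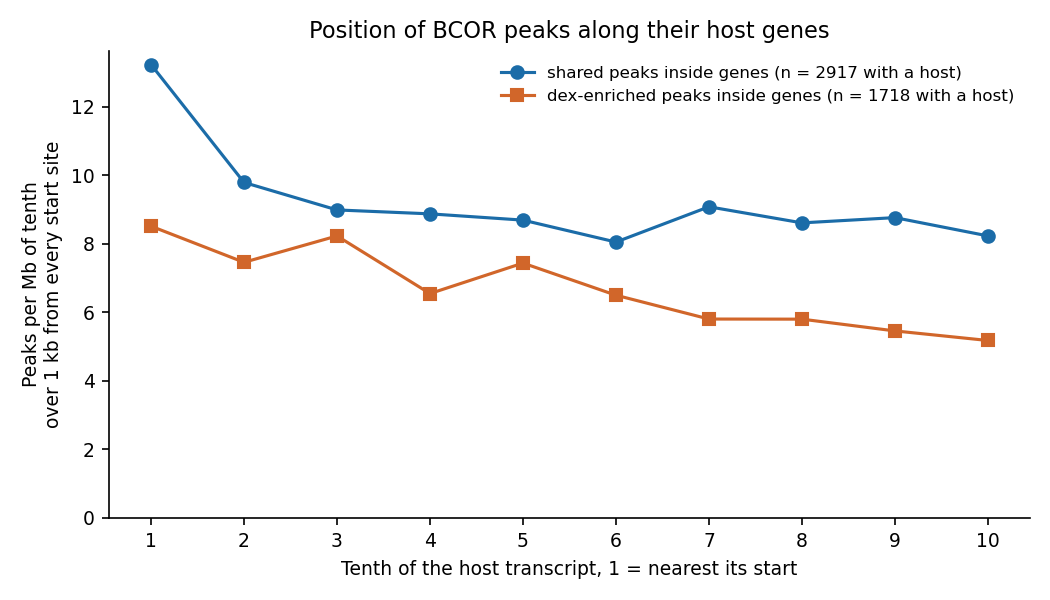
Density of BCOR peaks inside genes (vertical axis, peaks per Mb of host sequence more than 1 kb from every start site) in 10 equal stretches of the longest host transcript (horizontal axis, 1 is nearest the start). Shared peaks (blue circles) are at 13.2 per Mb in stretch 1 and 8.05 to 9.79 in the others, and dexamethasone-enriched peaks (orange squares) run from 8.52 to 5.18.

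Members were unevenly distributed over chromosomes. Over the whole annotated gene sequence there were 2.24 members per Mb. Chromosome 19 held 275 of them, or 9.41 per Mb, followed by chromosome 17 with 4.91, chromosome 14 with 4.06 and chromosome 22 with 3.81. The lowest densities were on chromosome 18 with 0.663, chromosome 4 with 0.76 and chromosome 11 with 0.965 per Mb. Dexamethasone-enriched peaks inside genes did not show the high value of chromosome 19, where they were at 1.20 per Mb against 1.32 over all chromosomes. These densities are descriptions of a single peak set with no per-library values, and mappability was not tested.

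The deposited peaks carry a score of 0 throughout and differ only in width and in a number at the end of their names. Of the members, 1210 (41.5%) were 335 bp wide with the number 1, 688 (23.6%) were 319 bp wide with the number 1, and 1021 (35%) had the number 2 and were up to 643 bp wide. Among all shared peaks these shares were 38.4%, 27% and 34.6%, so members did not stand apart in width. Dexamethasone-enriched peaks were 335 bp wide in 98% of cases and vehicle-enriched ones 319 bp wide in 99.3%. What the number stands for is not given in the sources used here.

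Most hosts held 1 shared peak: 1625 had 1, 330 had 2, 103 had 3 and 83 had 4 or more. The median distance from a member to the nearest other shared peak was 37.5 kb, and 621 members (21.3%) had one within 10 kb. A dexamethasone-enriched peak was within 10 kb of 193 members (6.61%), with a median distance of 155 kb. At the level of genes, 505 hosts also held a dexamethasone-enriched peak, which is 23.6% of the shared-peak hosts and 38.4% of the hosts of dexamethasone-enriched peaks. A vehicle-enriched peak lay in 44 hosts.

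The host with the most members was GMDS, the enzyme that begins GDP-fucose synthesis, with 12 shared peaks over a 622 kb gene on chromosome 6 and 2 dexamethasone-enriched ones. Its shared peaks were denser in the distal part, where 10 of the 12 lay between 60.0% and 99.9% of the gene's length. FOXP1, a forkhead transcription factor, held 11 shared and 5 dexamethasone-enriched peaks over 629 kb. SLC6A6, the taurine transporter, held 10 shared peaks in a gene of 86.8 kb, from chr3:14464989-14465378 to chr3:14521463-14521797, and no dexamethasone-enriched peak. PRKCA, protein kinase C alpha, held 9 shared and 3 dexamethasone-enriched peaks, of which 2 are next to each other at chr17:64344450-64344768 (shared) and chr17:64344832-64345166 (dexamethasone-enriched).

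**Figure D2:**
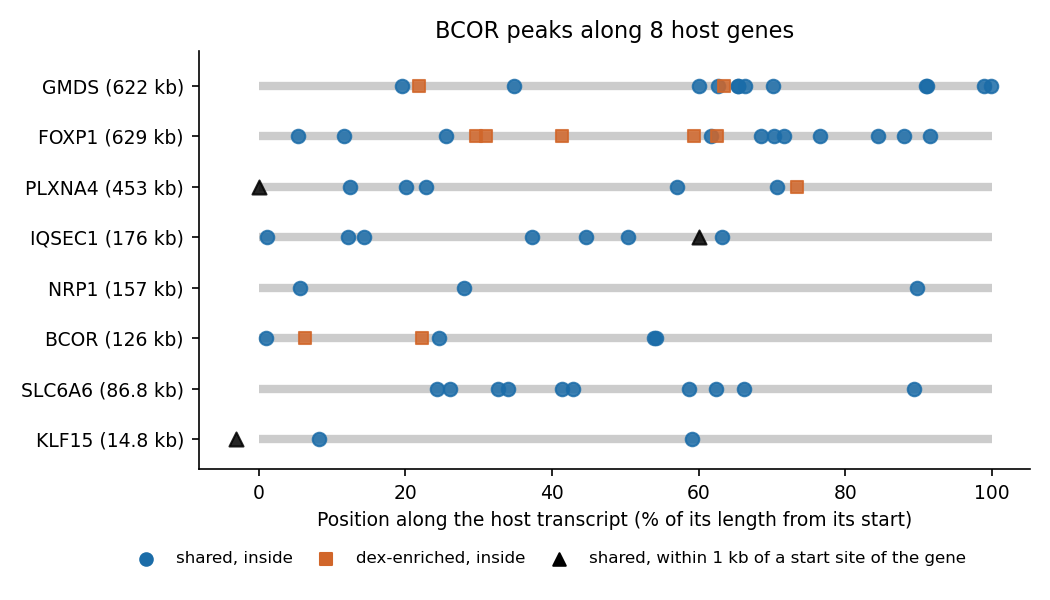
Positions of BCOR peaks along 8 host genes, each drawn as a bar scaled to the length of its longest transcript (horizontal axis, % of that length from its start; length in kb beside the name). Blue circles are shared peaks inside the gene, orange squares dexamethasone-enriched peaks and black triangles shared peaks within 1 kb of one of the gene's starts; GMDS carries 12 circles, most of them from 60.0% of its length, and SLC6A6 carries 10 circles and no square.

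Most hosts were expressed. Enough reads for the test described next were present for 1764 of 2141 hosts (82.4%), against 58.9% of all symbols. The other 377 hosts (214 coding, 157 non-coding) passed no filter on low counts, and 37 of them had no count in any library. Per kb of exon, tested hosts had a median of 5.20 CPM in siNON vehicle, 5.18 in siNON dexamethasone, 5.10 in siBCOR vehicle and 5.09 in siBCOR dexamethasone. Tested genes that are not hosts had 6.56, 6.50, 6.65 and 7.05 CPM per kb. Hosts together took 8.45% to 9.20% of the counts of a library. A tested gene is called higher or lower here when edgeR's quasi-likelihood test, fitted over 16432 genes and all 16 libraries, gave a Benjamini-Hochberg false discovery rate under 0.05. Because the samples are not said to come from separate cultures, the p-values measure the spread between these libraries, which may be technical.

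The first comparison asks what dexamethasone did to host RNA in cells with the non-targeting siRNA. In siNON cells 257 hosts rose and 284 fell, so that 541 of 1764 (30.7%) were called against 19.2 percent of all 16432 genes tested. The excess over all genes was larger among falling hosts, at 16.1% against 8.59 percent, than among rising hosts, at 14.6% against 10.6 percent. In siBCOR cells 219 hosts rose and 400 fell, a total of 35.1% against 23 percent of all genes, with 22.7% falling against 12.5 percent and 12.4% rising against 10.4 percent. Changes of at least 2-fold were seen in 67 rising (3.8%) and 57 falling (3.23%) hosts in siNON cells, against 2.4 and 1.38 percent of all genes. In siBCOR cells they were seen in 59 (3.34%) and 45 (2.55%), against 2.47 and 1.1 percent. The median log2 change of hosts was -0.02 and -0.08, against -0.00443 and 0.00348 for all genes, so the host set as a whole moved little. Dexamethasone and vehicle libraries of siNON cells also enter the siRNA comparisons, and the 4 pairwise comparisons are therefore not independent.

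Hosts differ from other genes in length and level, and the dexamethasone calls were read within classes of each. In siNON cells the share of falling hosts was 16.4%, 11.2%, 12.8%, 15.9% and 21.4% in genes of under 25, 25 to 50, 50 to 100, 100 to 200 and over 200 kb. Genes that are not hosts gave 7.66%, 6.92%, 7.49%, 8.01% and 11.4%. In siBCOR cells the hosts gave 19.9%, 20.8%, 21.6%, 24.4% and 25%, and the other genes 11.1%, 11.5%, 11.2%, 12.6% and 11.4%. The falling share was thus higher in hosts in all 5 length classes of both siRNA groups. Rising shares in siNON cells were 8.93%, 15.6%, 14.6%, 18.6% and 14.5% in hosts and 9.45%, 10.9%, 10.5%, 11.2% and 12.2% in other genes. They were thus also higher in hosts in each class but the shortest. In siBCOR cells rising shares were 7.74%, 10%, 13.1%, 15.4% and 14.1% in hosts and 8.98%, 10.1%, 12.8%, 12.4% and 12.3% in other genes. In 4 equal classes of mean level per kb, from low to high, falling hosts made up 12%, 22.9%, 18% and 8.20% in siNON cells, against 6.85%, 10.9%, 7.99% and 5.17% of other genes. Rising hosts made up 10.9%, 17%, 15.5% and 14.5%, against 8.71%, 9.65%, 11.8% and 10.5%. In siBCOR cells falling hosts made up 15.5%, 27%, 25.8% and 21.5%, against 7.62%, 13.4%, 13% and 11.4% of other genes. Rising hosts there made up 10.7%, 15.4%, 12.4% and 10.1%, against 11%, 12%, 10.5% and 7.36%. No test of these differences in share was run.

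**Figure D3:**
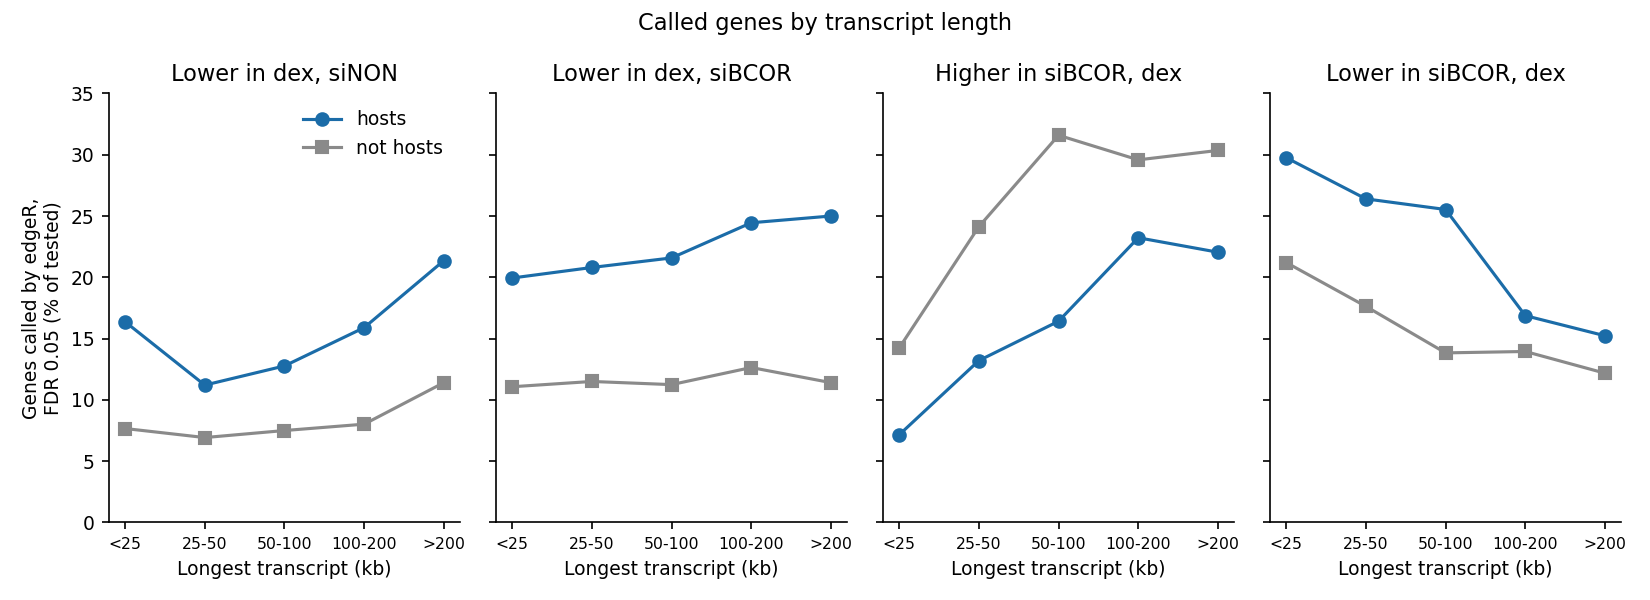
Share of tested genes called by edgeR (vertical axis, % of tested genes) by the length of the gene's longest transcript (horizontal axis, kb) for hosts of shared peaks (blue circles) and for genes that are not hosts (grey squares), in 4 comparisons. Hosts lie above other genes in the 2 panels of genes lower in dexamethasone (11.2% to 21.4% against 6.92% to 11.4% in siNON) and below them in the panel of genes higher in siBCOR under dexamethasone.

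Hosts that also held a dexamethasone-enriched peak had a larger rising share, while their falling share differed less from that of the other hosts. Among the 464 tested hosts that held one, 117 (25.2%) rose and 82 (17.7%) fell in siNON cells. Among the 1300 tested hosts without one, 140 (10.8%) rose and 202 (15.5%) fell, so the rising share was next to the 10.6 percent of all genes and the falling share was above the 8.59 percent. The 681 tested genes that held dexamethasone-enriched peaks only had 221 (32.5%) rising and 54 (7.93%) falling. In siBCOR cells the 3 classes gave 103 and 98, 116 and 302, and 213 and 62 genes rising and falling. These were 22.2% and 21.1%, 8.92% and 23.2%, and 31.3% and 9.1%, against 10.4 and 12.5 percent of all genes. The part of gene length in these differences was not tested.

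**Figure D4:**
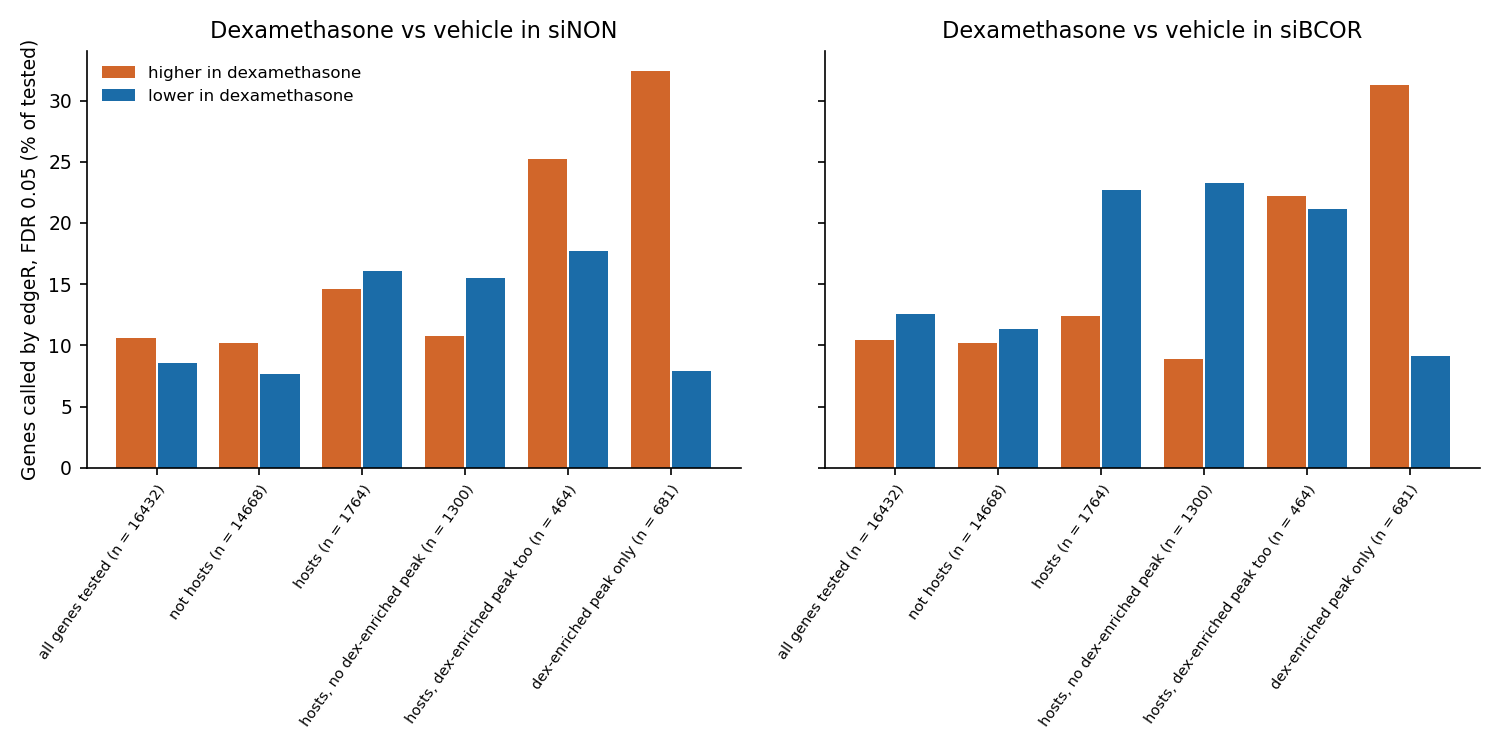
Share of tested genes (vertical axis, %) called higher (orange) or lower (blue) in dexamethasone than in vehicle by edgeR, in siNON cells on the left and siBCOR cells on the right, for all genes and for classes of genes by the BCOR peaks inside them, with the number tested in each label. Hosts of shared peaks without a dexamethasone-enriched peak show more lower than higher genes (15.5% and 10.8% in siNON), and genes with dexamethasone-enriched peaks only show more higher ones (32.5% and 7.93%).

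Among hosts, the number, kind and place of the shared peaks were compared with the same calls. Of all genes, 8.59 percent fell and 10.6 percent rose in siNON cells, and 12.5 and 10.4 percent in siBCOR cells. The falling share in siNON cells was 14.6%, 18.3%, 23.1% and 26% for hosts with 1, 2, 3 and 4 or more peaks, and in siBCOR cells 21.3%, 22.9%, 35.2% and 31.2%. Only 91 and 77 tested hosts are in the last 2 classes. The falling share also differed by gene length, as given above, and the part of length in these differences was not tested. Hosts with a peak in the first 10% of the longest host transcript had 15.7% falling in siNON cells, those with the first peak between 10% and 50% had 17.9%, and those with every peak past 50% had 14.4%. In siBCOR cells the same classes had 25.1%, 23.9% and 20.1% falling. Hosts with a peak within 5 kb of a start site and hosts with every peak over 50 kb away had 17% and 17.9% falling in siNON cells. They differed more in the siRNA comparison under dexamethasone. There 25.7% and 13% were lower in siBCOR than in siNON, against 18.7 percent of all genes. The higher shares were 14.4% and 24.4%, against 20.4 percent of all genes. In the same order, the most-read transcripts of these hosts had median lengths of 31.98 and 226 kb. The part of length in this difference was not tested. With dexamethasone in siNON cells, hosts whose peaks were all 335 bp wide had 11.8% falling and 16% rising. Those with 319 bp peaks only had 15.8% and 13.4%, and those with a peak of the number 2 had 18.7% and 14.6%. In siBCOR cells the falling share was above the rising share in all of these classes, at 19.2% and 12.6%, 21.7% and 11.9%, and 25.1% and 13.1%. Of hosts with a shared peak at their own start 19.6% fell in siNON cells, against 14.7% of those without one and 9.94% of the 2637 genes that had a shared peak at their start and none inside.

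Several hosts rose strongly with dexamethasone in both siRNA groups. PHACTR3, which binds protein phosphatase 1 and actin, was at 1.63, 1.89, 2.37 and 2.08 CPM in the siNON vehicle libraries and at 52.6, 52.0, 49.4 and 65.3 CPM in siNON dexamethasone. The siBCOR vehicle libraries had 3.39, 2.41, 3.21 and 2.97 CPM, against 65.3, 63.2, 58.7 and 64.6 CPM with dexamethasone. The treatments did not overlap in either siRNA group, and the log2 change was 4.78 ± 0.13 (SE, n = 4 per group; edgeR adjusted p = 1.14e-14) in siNON and 4.39 ± 0.12 (adjusted p = 1.85e-14) in siBCOR cells. Its shared peak lies at chr20:58410599-58410917, 258 kb into the gene, beyond 4 dexamethasone-enriched peaks of the same gene. WNT16, a secreted Wnt ligand, had no dexamethasone-enriched peak inside and 2 shared ones, at chr7:120970296-120970614 and chr7:120976743-120977061, 1.37 and 7.81 kb from the nearest start site. Its CPM went from 4.14, 5.71, 4.82 and 5.06 in siNON vehicle to 52.2, 54.3, 47.2 and 54.3 in siNON dexamethasone, a log2 change of 3.40 ± 0.09 (edgeR adjusted p = 5.76e-15). In siBCOR cells the 4 vehicle libraries were at 5.79 to 6.08 CPM and the 4 dexamethasone libraries at 64.7 to 68.9 CPM, a log2 change of 3.49 ± 0.08 (edgeR adjusted p = 4.98e-15).

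CNKSR3, a scaffold protein of epithelial sodium transport, held 1 shared peak at chr6:154779012-154779330, 52.6 kb from its start, and 1 dexamethasone-enriched peak 28.9 kb from it. It was at 32.7, 30.9, 26.2 and 28.1 CPM in siNON vehicle and at 225, 234, 214 and 197 CPM in siNON dexamethasone, without overlap. The log2 change was 2.88 ± 0.07 in siNON and 2.79 ± 0.07 in siBCOR cells (edgeR adjusted p = 7.7e-15 and 1.06e-14). CDC42EP4, an effector of the small GTPase Cdc42 whose start-site bases are printed above, held a shared peak at chr17:71301614-71301962 and another at its start. Its 4 siNON vehicle libraries lay at 36.4 to 43.5 CPM and its 4 siNON dexamethasone libraries at 159 to 188 CPM, a log2 change of 2.14 ± 0.08 (edgeR adjusted p = 1.03e-12). Under dexamethasone it was lower in siBCOR, at 130 to 156 CPM, with a log2 difference of -0.27 ± 0.07 (edgeR adjusted p = 0.00997), with all 4 siBCOR libraries under the 4 siNON ones.

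RBMS3, an RNA-binding protein, was the rising host with the fewest CpGs among the 4 stretches shown. It was at 2.19, 3.24, 3.30 and 2.53 CPM in siNON vehicle and at 9.58, 9.38, 8.69 and 17.9 CPM in siNON dexamethasone, where replicate 4 was far above the others. The log2 change was 2.01 ± 0.23 in siNON and 2.26 ± 0.23 in siBCOR cells (edgeR adjusted p = 5.98e-06 and 1.33e-06). Among the hosts with the most members, SLC6A6 went from 104, 90.6, 87.6 and 84.4 CPM in siNON vehicle to 235, 238, 226 and 182 CPM in siNON dexamethasone, a log2 change of 1.27 ± 0.08 (edgeR adjusted p = 3.12e-09). Its change in siBCOR cells was 0.81 ± 0.08, and the difference of the 2 changes, -0.45 ± 0.12, did not pass the test (edgeR adjusted p = 0.173). PRKCA rose by 0.70 ± 0.08 and 0.40 ± 0.08 (edgeR adjusted p = 5.01e-06 and 0.00193). FOXP1 fell, with log2 changes of -0.64 ± 0.10 and -0.61 ± 0.09 (edgeR adjusted p = 7.08e-05 and 0.000114). GMDS, with the most members of all, was at 42.4 to 49.0, 44.6 to 49.4, 41.7 to 49.2 and 38.6 to 44.5 CPM in the 4 groups and was called in none of the comparisons.

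Known glucocorticoid-induced genes were represented by 9 hosts of 45 in the table. Of these 9, 7 rose and 1 fell in siNON cells and 6 rose and none fell in siBCOR cells, with a median log2 change of 0.63 and 1.05. The falling one was TGFBR3, a coreceptor of TGF-beta (log2 change -0.38). The other 35 tested genes of the list had 27 rising and 0 falling in siNON cells and 28 and 2 in siBCOR cells. Over all genes tested, 10.6 percent rose and 8.59 percent fell in siNON cells, and 10.4 and 12.5 percent in siBCOR cells. KLF15, a transcription factor of amino acid and glucose metabolism, was at 16.5, 15.3, 17.6 and 19.2 CPM in siNON vehicle and at 57.0, 59.6, 58.3 and 54.9 CPM in siNON dexamethasone. It held 2 shared peaks inside, at chr3:126067320-126067695 and chr3:126074855-126075189, and 1 just upstream of its start. Its log2 change was 1.74 ± 0.09 in siNON and 1.93 ± 0.09 in siBCOR cells (edgeR adjusted p = 7.37e-11 and 2.47e-11). ZBTB16, the transcription factor PLZF, had its shared peak at chr11:114030559-114031116 among 4 dexamethasone-enriched ones and rose by 1.29 ± 0.08 and 1.32 ± 0.09 (edgeR adjusted p = 2.37e-09 and 2.79e-09). MERTK, a receptor kinase for the uptake of dying cells, rose by 1.26 ± 0.07 and 0.94 ± 0.07 (edgeR adjusted p = 5.42e-10 and 2.82e-08).

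TSC22D3, which encodes the anti-inflammatory protein GILZ, is a host only through its longer transcripts: its shared peak at chrX:106986430-106986799 lies upstream of the most-read transcript. It was at 361, 459, 314 and 383 CPM in siNON vehicle, 1160, 1125, 1224 and 993 in siNON dexamethasone, 176, 252, 179 and 214 in siBCOR vehicle, with 822, 762, 818 and 795 in siBCOR dexamethasone. Its level was lower in siBCOR than in siNON under both treatments without overlap, with log2 differences of -0.89 ± 0.12 in vehicle and -0.49 ± 0.11 in dexamethasone (edgeR adjusted p = 0.000108 and 0.00425). It rose with dexamethasone by 1.57 ± 0.12 and 1.96 ± 0.12, and the difference of these changes did not pass the test (0.39 ± 0.16, edgeR adjusted p = 0.24).

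Axon guidance genes were the list with the largest share of hosts, 22 of 48 in the table, where 2141 of all 27896 symbols are hosts. A longer gene is more readily a host under the rule, and the part of length in this share was not tested. In siNON cells 2 of the 22 rose and 12 fell, with a median log2 change of -0.57, and in siBCOR cells again 2 rose and 12 fell. The 23 tested guidance genes that are not hosts had 3 rising and 11 falling in siNON cells and 3 and 8 in siBCOR cells, so guidance genes fell often whether or not they were hosts. The shares over all genes were 10.6 percent rising and 8.59 percent falling in siNON cells, and 10.4 and 12.5 percent in siBCOR cells. The rising hosts were the receptors EPHB3 and PLXNA2 (log2 change 1.64 and 0.42 in siNON cells, 1.35 and 0.50 in siBCOR cells). Receptors and ligands were both among the falling hosts. UNC5B, a netrin receptor with a shared peak at chr10:72995665-72995999 and another at its start, was at 65.3, 74.4, 54.4 and 64.9 CPM in siNON vehicle and at 20.3, 17.8, 21.3 and 15.8 CPM in siNON dexamethasone. It fell, with a log2 change of -1.78 ± 0.12 in siNON and -1.77 ± 0.12 in siBCOR cells (edgeR adjusted p = 5.98e-09 and 8.66e-09). ROBO2, a receptor for Slit proteins with shared peaks at chr3:77240729-77241085 and chr3:77305810-77306268, was at 19.7, 22.0, 21.6 and 19.1 CPM in siNON vehicle, 9.85, 9.16, 11.1 and 9.19 in siNON dexamethasone, 34.1, 27.0, 30.9 and 31.2 in siBCOR vehicle, with 15.1, 15.4, 15.98 and 14.4 in siBCOR dexamethasone. No 2 groups overlapped: it fell with dexamethasone with a log2 change of -1.06 ± 0.09 in siNON cells (edgeR adjusted p = 5.69e-08) and was higher in siBCOR than in siNON, by 0.58 ± 0.08 in vehicle and 0.63 ± 0.09 in dexamethasone (edgeR adjusted p = 0.000215 and 9.31e-05).

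The secreted guidance factor SEMA3C fell, with a log2 change of -1.81 ± 0.17 in siNON and -1.03 ± 0.17 in siBCOR cells (edgeR adjusted p = 4.78e-07 and 0.000196), and the difference did not pass the test (0.79 ± 0.24, adjusted p = 0.196). EPHA4, an ephrin receptor, fell, with log2 changes of -0.97 ± 0.09 and -1.02 ± 0.09 (edgeR adjusted p = 2.09e-07 and 1.21e-07). PLXNA4, a semaphorin coreceptor with 5 shared peaks inside and 1 at its start, depended on the siRNA more than on the hormone. It was at 8.84, 9.14, 6.26 and 6.95 CPM in siNON vehicle and at 3.20, 3.33, 2.97 and 2.60 CPM in siBCOR vehicle, a log2 difference of -1.36 ± 0.16 (edgeR adjusted p = 3.41e-05), and the log2 difference under dexamethasone was -1.30 ± 0.17 (edgeR adjusted p = 5.07e-05). Over the 22 guidance hosts, 1 was higher and 6 were lower in siBCOR than in siNON in vehicle, and 3 and 5 under dexamethasone. The 23 others had 2 and 2 in vehicle and 1 and 5 under dexamethasone, with 17 and 39.2 percent of all genes called in either direction.

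Developmental transcription factors of the kind that Polycomb complexes hold at their starts were hosts in 14 of 95 cases. None of the 14 rose with dexamethasone in either siRNA group, while 10 fell in siNON and 11 in siBCOR cells, with median log2 changes of -0.77 and -0.66. Of the 71 tested others, 5 rose and 43 fell in siNON cells and 6 and 41 in siBCOR cells. Over all genes, 10.6 percent rose and 8.59 percent fell in siNON cells, and 10.4 and 12.5 percent in siBCOR cells. TFAP2A, the AP-2 alpha factor, held a shared peak at chr6:10407888-10408222 in the middle of its gene and was at 63.7, 57.0, 47.3 and 57.9 CPM in siNON vehicle and 25.9, 26.6, 24.3 and 19.9 CPM in siNON dexamethasone. Its log2 change was -1.22 ± 0.11 in siNON and -1.38 ± 0.11 in siBCOR cells (edgeR adjusted p = 1.49e-07 and 3.81e-08). HOXA3, with shared peaks at chr7:27154643-27155106 and chr7:27156226-27156560, fell, with log2 changes of -1.33 ± 0.12 and -1.49 ± 0.13 (edgeR adjusted p = 2.22e-07 and 7.89e-08). In siBCOR against siNON, 1 of the 14 was higher and 1 lower in vehicle and 2 and 2 under dexamethasone, against 9 and 7 and then 14 and 7 of the 71 others. Of all genes, 17 and 39.2 percent were called in either direction in these comparisons.

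Adhesion and extracellular matrix genes were hosts in 22 of 69 cases, 21 of them tested, and 2 rose and 9 fell in siNON cells and 2 and 12 in siBCOR cells. The 38 tested others had 5 rising and 6 falling in siNON and 4 and 14 in siBCOR cells. Over all genes, 10.6 percent rose and 8.59 percent fell in siNON cells, and 10.4 and 12.5 percent in siBCOR cells. PCDH7, a protocadherin with 4 shared peaks over 426 kb, was at 101, 101, 111 and 85.6 CPM in siNON vehicle and at 37.2, 39.2, 34.02 and 39.2 CPM in siNON dexamethasone. It fell, with log2 changes of -1.41 ± 0.09 and -1.30 ± 0.09 (edgeR adjusted p = 1.89e-09 and 6.27e-09). The protease gene ADAMTS9 was among those that rose, by 1.25 ± 0.10 and 1.21 ± 0.10 (edgeR adjusted p = 2.75e-08 and 5.69e-08).

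Of growth factor and MAPK genes 14 of the 15 hosts (of 68 listed) were tested, and 0 rose and 6 fell in siNON cells, while 10 rose and 5 fell among the 53 tested others. In siBCOR cells 0 rose and 5 fell among the hosts, and 10 rose and 12 fell among the others. The shares over all genes were 10.6 percent rising and 8.59 percent falling in siNON cells, and 10.4 and 12.5 percent in siBCOR cells. FGFR2, a receptor for fibroblast growth factors with shared peaks at chr10:123311791-123312131 and chr10:123332294-123332642, went from 65.3, 64.0, 55.9 and 56.8 CPM to 29.1, 29.8, 28.2 and 24.4 CPM, a log2 change of -1.12 ± 0.08 (edgeR adjusted p = 5.22e-09). It fell likewise in siBCOR cells, a log2 change of -1.10 ± 0.08 (edgeR adjusted p = 7.93e-09). PDGFC, a platelet-derived growth factor, fell, with log2 changes of -1.01 ± 0.10 and -1.02 ± 0.10 (edgeR adjusted p = 5.65e-07 and 5.47e-07), and MET, the receptor for hepatocyte growth factor, with log2 changes of -0.71 ± 0.12 and -0.40 ± 0.12 (edgeR adjusted p = 0.000377 and 0.0257).

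Of 13 Wnt pathway hosts (50 listed genes) 1 rose and 6 fell in siNON cells and 1 and 8 in siBCOR cells. The riser was the ligand WNT7B in siNON cells and the formin DAAM1 in siBCOR cells, each with a log2 change of 0.41. The 36 tested Wnt genes that are not hosts had 6 rising and 10 falling in siNON and 2 and 12 in siBCOR cells. For this list and the TGF-beta, BMP and Hippo lists below, the all-gene shares in siNON cells were 10.6 percent rising and 8.59 percent falling. In siBCOR cells they were 10.4 and 12.5 percent. LGR5, a receptor for R-spondins with a shared peak at chr12:71897625-71898129 and another at its start, went from 41.6, 42.3, 45.8 and 37.0 CPM in siNON vehicle to 12.7, 11.1, 11.8 and 12.1 CPM in siNON dexamethasone. It fell, with a log2 change of -1.80 ± 0.08 in siNON and -1.35 ± 0.08 in siBCOR cells (edgeR adjusted p = 2.52e-11 and 1.09e-09), and under dexamethasone the siBCOR libraries, at 15.7 to 18.6 CPM, were all above the siNON ones (log2 difference 0.53 ± 0.08, edgeR adjusted p = 0.000256). Of 10 TGF-beta and BMP hosts (42 listed) none rose, and 5 fell in siNON and 3 in siBCOR cells, while the 30 others had 1 rising and 10 falling and then 0 and 7. SMAD6, an inhibitory SMAD with 4 shared peaks inside and 1 at its start, went from 8.52, 8.03, 7.70 and 7.22 CPM to 3.72, 4.11, 4.09 and 4.09 CPM in siNON cells, a log2 change of -0.98 ± 0.12 (edgeR adjusted p = 8.81e-06). Vehicle and dexamethasone libraries of siNON cells did not overlap in UNC5B, ROBO2, TFAP2A, PCDH7, FGFR2, LGR5 or SMAD6. Of 10 Hippo pathway hosts (35 listed) 0 rose, and 3 fell in siNON and 4 in siBCOR cells, while the 25 others had 2 rising and 8 falling and then 3 and 8.

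The next comparison asks what BCOR depletion did to its hosts. In vehicle, 161 hosts were higher and 181 lower in siBCOR than in siNON, 19.4% against 17 percent of all genes, of which 8.82 percent were higher and 8.19 percent lower. Under dexamethasone 303 were higher and 386 lower, 39.1% against 39.2 percent. Both shares are near the background. By direction, 17.2% of hosts were higher under dexamethasone against 20.4 percent of all genes, and 21.9% were lower against 18.7 percent. Within length classes the hosts had 7.14%, 13.2%, 16.4%, 23.2% and 22% higher, and the other genes 14.2%, 24.1%, 31.6%, 29.6% and 30.4%, a smaller share of hosts than of other genes in each of the 5 classes. The lower shares were 29.8%, 26.4%, 25.5%, 16.9% and 15.2% of hosts and 21.2%, 17.6%, 13.8%, 13.9% and 12.2% of other genes, a larger share of hosts in each class. These differences in share were not tested. Differences of at least 2-fold were seen in 9 hosts higher (0.51%) and 20 lower (1.13%) in vehicle, against 0.292 and 0.584 percent of all genes, and in 13 (0.737%) and 33 (1.87%) under dexamethasone, against 0.749 and 0.937 percent. The vehicle count rests on single libraries. It was 222 without siBCOR vehicle replicate 1, when 10.9% of all genes were called. Without the 3 libraries taken as standing apart it was 759 (296 higher and 463 lower, 43% against 38.7% of all genes).

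Several hosts other than BCOR were lower in siBCOR, and those given here were taken by size of difference among called hosts whose groups do not overlap and whose counts average 50 or more. CLSTN2, a calsyntenin of neuronal membranes with 1 shared peak at chr3:139905280-139905598, was at 8.88, 9.19, 7.24 and 6.68 CPM in siNON vehicle and at 2.60, 2.17, 2.18 and 2.55 CPM in siBCOR vehicle. Under dexamethasone it was at 8.42, 8.69, 9.24 and 8.75 CPM in siNON and at 2.08, 2.15, 2.19 and 1.98 CPM in siBCOR. The siRNA groups did not overlap under either treatment (log2 difference -1.74 ± 0.11 and -2.06 ± 0.11, edgeR adjusted p = 1.03e-07 and 6.64e-09), while dexamethasone itself gave no call. IQSEC1, an exchange factor for the GTPase ARF6, held 7 shared peaks inside a 176 kb gene and 1 more at an internal start. It was at 110, 102, 82.6 and 97.5 CPM in siNON vehicle, 99.4, 95.7, 109 and 69.7 in siNON dexamethasone, 45.8, 49.1, 45.8 and 45.1 in siBCOR vehicle, with 37.6, 37.6, 39.0 and 32.5 in siBCOR dexamethasone. The log2 difference was -1.08 ± 0.11 in vehicle and -1.35 ± 0.11 under dexamethasone (edgeR adjusted p = 1.35e-05 and 6.17e-07).

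MIDN, midnolin, a chromosome 19 host with a shared peak at chr19:1253778-1254096, was lower in siBCOR, with log2 differences of -1.15 ± 0.14 and -1.06 ± 0.14 (edgeR adjusted p = 4.72e-05 and 4.55e-05). GRIK3, a kainate receptor subunit, was lower, with log2 differences of -1.88 ± 0.18 and -1.73 ± 0.21 (edgeR adjusted p = 5.76e-06 and 1.99e-05). PCGF5, a subunit of another Polycomb complex of the PRC1 kind, was lower, with log2 differences of -1.83 ± 0.24 and -1.15 ± 0.24 (edgeR adjusted p = 0.000124 and 0.00216), with siNON vehicle replicate 3 at 61.0 CPM above the 31.3 to 35.2 CPM of the other 3. An off-target effect of the siRNA pool and loss of BCOR cannot be told apart in these data, since 1 pool was used.

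Other hosts were higher in siBCOR. DENND2A, a regulator of Rab GTPases with a shared peak at chr7:140241452-140241786, was at 3.03, 3.44, 2.58 and 3.21 CPM in siNON vehicle and at 5.68, 6.90, 5.34 and 5.24 CPM in siBCOR vehicle. The log2 difference was 0.92 ± 0.13 in vehicle and 1.08 ± 0.13 under dexamethasone (edgeR adjusted p = 0.000128 and 1.72e-05). CDC14A, a cell-cycle phosphatase, was at 10.0, 9.43, 12.3 and 9.12 CPM in siNON vehicle, 17.7, 17.6, 16.1 and 18.3 in siNON dexamethasone, 16.3, 12.9, 17.4 and 15.0 in siBCOR vehicle, with 38.4, 35.2, 35.2 and 36.8 in siBCOR dexamethasone. It was highest where both applied: dexamethasone raised it by 0.77 ± 0.10 in siNON and 1.24 ± 0.10 in siBCOR cells (edgeR adjusted p = 2.03e-05 and 3.89e-08), but the difference of the 2 changes did not pass the test (0.47 ± 0.14, adjusted p = 0.196). FGF2, the basic fibroblast growth factor, was higher in siBCOR under dexamethasone by 1.21 ± 0.18 (edgeR adjusted p = 0.000212) and gave no call in vehicle (0.40 ± 0.18, adjusted p = 0.146).

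Chromatin regulators were hosts in 16 of 69 cases. With dexamethasone 1, the histone deacetylase gene HDAC7, rose (log2 change 0.58) and 2 fell in siNON cells and 0 and 5 in siBCOR cells, and under dexamethasone 2 were higher and 4 lower in siBCOR than in siNON, a share near the 39.2 percent of all genes. The 53 others had 2 rising and 2 falling in siNON cells, 1 and 9 in siBCOR cells, and 7 higher and 16 lower in siBCOR under dexamethasone. Over all genes, dexamethasone gave 10.6 percent rising and 8.59 percent falling in siNON cells, and 10.4 and 12.5 percent in siBCOR cells. The 1 rising and 2 falling of 16 hosts in siNON cells are near these shares. CHD7, a chromatin remodeller, was lower in siBCOR, with log2 differences of -0.43 ± 0.08 in vehicle and -0.59 ± 0.08 under dexamethasone (edgeR adjusted p = 0.00228 and 9.59e-05). TET1, which oxidises methylated cytosine, was higher by 0.64 ± 0.14 under dexamethasone (edgeR adjusted p = 0.00295). Of the PRC1.1 subunits BCOR and KDM2B were hosts, and of PRC2 EZH2 and JARID2, out of 12 listed genes each. Smaller groups of hosts were 3 of 26 GR coregulators, 4 of 30 NF-kB and inflammatory genes and 2 of 48 ribosomal protein genes. RPL28 and RPL29, the ribosomal hosts, were lower in siBCOR under dexamethasone, with log2 differences of -0.54 ± 0.10 and -0.33 ± 0.08 (edgeR adjusted p = 0.00101 and 0.00416), as were 36 of the 46 other ribosomal protein genes tested. Of all genes, 18.7 percent were lower in this comparison.

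**Figure D5:**
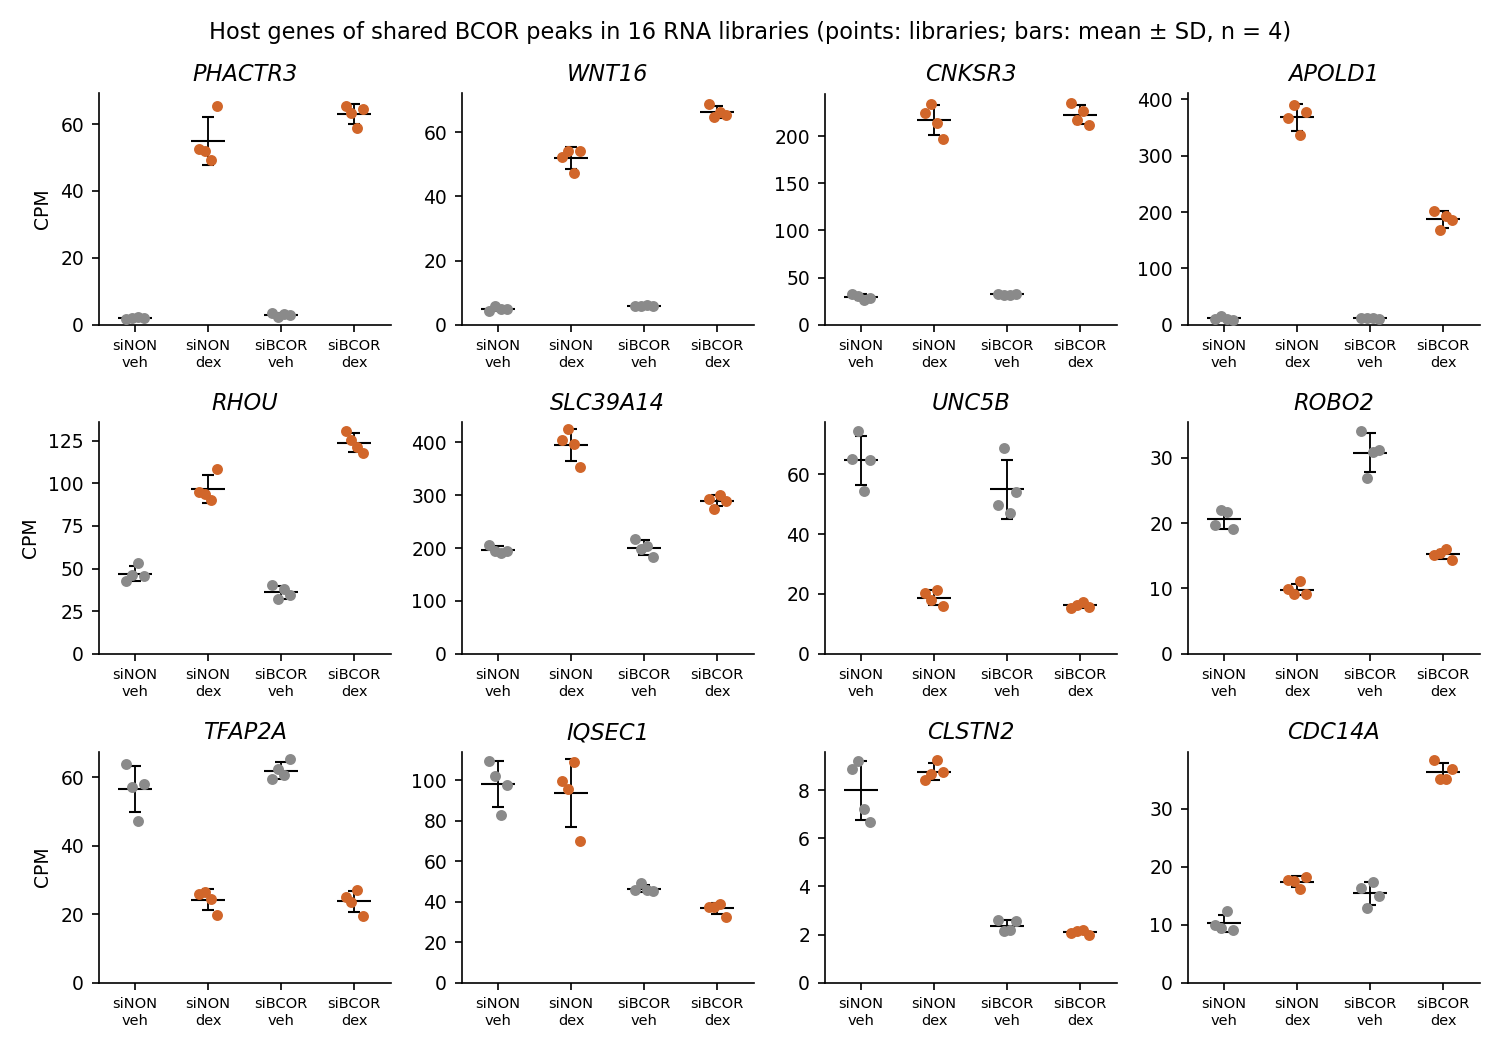
RNA level (vertical axes, CPM, each starting at 0) of 12 host genes in the 16 libraries, by siRNA and treatment (veh, vehicle, grey; dex, dexamethasone, orange); points are libraries and bars are mean ± SD, n = 4. PHACTR3, WNT16 and CNKSR3 rise with dexamethasone in both siRNA groups, UNC5B and TFAP2A fall, and CLSTN2 and IQSEC1 are lower in both siBCOR groups.

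The last comparison asks whether the dexamethasone response of a host differed between siBCOR and siNON cells. The interaction term was called for 3 of 1764 hosts, 1 higher and 2 lower (0.170%, against 0.103 percent of all genes, 0.0183 percent higher and 0.0852 percent lower), with 365 hosts and 3129 of all 16432 genes at an unadjusted p under 0.05. APOLD1, an apolipoprotein L domain protein of blood vessel cells, rose with dexamethasone in both siRNA groups, with an interaction of -0.98 ± 0.17 on the log2 scale (edgeR adjusted p = 0.035). RHOU, a small GTPase, was at 42.7, 46.4, 53.2 and 45.7 CPM in siNON vehicle, 94.9, 93.8, 90.1 and 109 in siNON dexamethasone, 40.6, 32.1, 37.8 and 34.2 in siBCOR vehicle, with 131, 126, 121 and 118 in siBCOR dexamethasone. Its rise was larger in siBCOR cells by 0.73 ± 0.12 (edgeR adjusted p = 0.0344), and its 2 shared peaks lie upstream of the most-read transcript. SLC39A14, the zinc transporter ZIP14, rose by 1.01 ± 0.06 in siNON and 0.53 ± 0.06 in siBCOR cells, an interaction of -0.48 ± 0.09 (edgeR adjusted p = 0.0457). Each of the 3 adjusted p-values is close to 0.05, and the count rests on single libraries: it was 0 to 1 without any other library but 266 without siNON dexamethasone replicate 4, when 14.7% of all genes were also called.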

How the data were processed

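Gene-level RNA was measured in 16 libraries and BCOR binding in 3 peak lists. Per the file headers, the authors deposited HOMER raw counts per RefSeq transcript. The deposited peaks are BED intervals whose score is 0 throughout, and their number and class labels are of another kind, with no unit. Per the submitters' processing notes, HOMER 4.10.3, Bowtie 0.12.9, TopHat2, Trimmomatic and bedtools were used with hg19. The counting command in the header names no strand option, so whether strands were counted apart is not given in the sources used here, and overlapping genes may share reads. Counts per library in the transcripts used span 18580288 to 28054822.

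Peak centres were placed against the 65572 transcripts of the count table. Each of 27896 symbols was represented by its most-read transcript; 134 transcripts without a symbol (0.0664% of counts) were left out. edgeR 4.0.16 (R 4.3.3) fitted all 16 libraries with TMM scaling, filterByExpr and a robust quasi-likelihood model of the 4 groups, with Benjamini-Hochberg adjustment over 16432 genes. SE is the log2 change divided by the root of F. The procedure was tested on simulated data with 200 genes changed 2-fold between dexamethasone and vehicle in siNON. Of these, 191 were recovered among 16432 genes, with 10 false calls. No recovery is given for smaller changes, for the other comparisons or for the interaction. In the real data, 124 of the 541 hosts called in that comparison changed at least 2-fold. The simulation therefore does not show how reliable calls on smaller changes are. Dependence on single libraries was read from the real counts. Replicate numbers were not used to pair the libraries in the main fit. Of 24 same-number pairs, 6 had a correlation of deviations over 0.1, with a range of -0.526 to 0.502. Whether libraries of the same number belong together is not given in the labels.

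Named genes are BCOR and NR3C1; the 10 hosts with the most shared peaks; per contrast and direction the 8 called hosts of largest change whose groups do not overlap and whose counts average 50 or more; up to 4 called hosts of each of 15 gene lists, 1 of which is not reported here; and the 8 hosts richest in both kinds of peak. TGFBR3, EPHB3, PLXNA2, WNT7B, DAAM1 and HDAC7 were named after their values were seen where the rule did not name them. The members and lists were chosen with earlier results of these data known. Alternatives were DESeq2 1.42.0, other scalings, filters, transcripts and peak rules, the replicate block, and libraries left out. Python 3.11.15 and pandas 2.3.3 were used.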

Additional observations from a re-analysis of the deposited data

Results flagged for a closer look

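In groups of 4 libraries a value was singled out when its gap to the nearest other library took up most of the group's range, which chance gives in about 1 group in 20; this held for 25 of the 408 groups of named genes. Of these values 7 were in siNON dexamethasone replicate 4: NFIC (nuclear factor I C) at 64.9 CPM, PRKCA at 144, PCDH19 at 14.9, NRP1 at 20.2, SFRP2 at 13.5 and PTPN14 at 103 CPM were the lowest of their group, and RBMS3 at 17.9 CPM the highest. In siBCOR dexamethasone replicate 4, PRKCA at 132, KLF15 at 65.0 and SFRP2 at 13.4 CPM were the lowest and DLEU1 at 22.7 CPM the highest. In siNON vehicle replicate 3, PCGF5 at 61.0 and FRMD6 at 37.2 CPM were the highest and INSM1 at 6.60 and ARHGAP10 at 24.0 CPM the lowest.

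The other values were spread over 8 libraries. In siBCOR vehicle replicate 2, NR3C1, which is not a host, was lowest at 1053 CPM and IQSEC1 highest at 49.1 CPM. In siBCOR dexamethasone replicate 2, RBMS3 at 11.01 and MET at 98.9 CPM were the lowest. PCDH19 was highest in siBCOR vehicle replicate 1 at 82.7 CPM, HOXA3 in siNON vehicle replicate 1 at 13.6 CPM, PRICKLE1 in siNON vehicle replicate 2 at 26.0 CPM and ITGB8 in siBCOR dexamethasone replicate 3 at 5.85 CPM. GRIK3 was lowest in siNON dexamethasone replicate 2 at 3.11 CPM and SMAD6 in siNON dexamethasone replicate 1 at 3.72 CPM.

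The dexamethasone response differed between siBCOR and siNON cells by the interaction test for 3 hosts: APOLD1 (log2 -0.98, edgeR adjusted p = 0.035), RHOU (log2 0.73, adjusted p = 0.0344) and SLC39A14 (log2 -0.48, adjusted p = 0.0457). APOLD1 kept its call under 7 of 23 alternatives, RHOU under 11 and SLC39A14 under 3.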

How the results depend on the processing

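Called hosts stayed within 1.5 times of the counts reported for both dexamethasone comparisons and for siBCOR against siNON under dexamethasone, except where fewer genes could count: at least 2-fold changes left 124, 104 and 46 hosts, and hosts without a dexamethasone-enriched peak 342 in siNON cells. For siBCOR against siNON in vehicle the 342 calls became 205 in a fit of only those groups and 29 at 2-fold or more. Without the 3 libraries taken as standing apart (chosen after seeing the data) they became 759. Of all genes, 9.51% were called in the fit of only those groups and 38.7% without the 3 libraries. For the interaction the 3 calls became 211 without these libraries, 12% of tested hosts against 12.3% of all genes. They became 15 with DESeq2, when 0.584% of all genes were called. In genes averaging 50 or more counts 1 call was left, and 0 at 2-fold or more. Without the same libraries dexamethasone gave 669 and 773 called hosts in siNON and siBCOR cells. For siBCOR against siNON under dexamethasone they left 1028. These were 37.9, 43.8 and 58.2 percent of tested hosts, against 26.6, 32.6 and 57.3 percent of all genes. The cause of these shifts was not tested.

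Leaving out 1 library in turn gave 456 to 615 and 500 to 686 called hosts for dexamethasone in siNON and siBCOR cells, 222 to 426 and 480 to 869 for siBCOR in vehicle and dexamethasone, and 0 to 266 for the interaction. In the same order, the share of all genes called was 15.2% to 24.3%, 17.4% to 27.2%, 10.9% to 20.9%, 25.2% to 49.3% and 0.0121% to 14.7%. With the replicate number as a block the counts were 535, 618, 323, 686 and 0, with 18.3%, 22.7%, 16.1%, 38.8% and 0.0183% of all genes called. Of 248 called values of named genes 218 were called under every alternative, 30 were lost under at least 1 and 0 reversed. Start-site limits of 500, 2000 and 5000 bp gave 3376, 2607 and 2286 peaks, and the 5000 bp limit moved the median position from 47% to 52%. Motif and CpG counts in the peaks were not run, since no hg19 genome was used. At 18580288 to 28054822 counts a library, the 377 hosts below the filter allow no statement, and 2 peak libraries per treatment with no deposited score give no error on a peak.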
